A study of Mus musculus with 29 samples.

Results

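IL-4 and IL-6 were each given alone and given together to mouse macrophages, and the question here is where the response to both departs from the sum of the responses to each. The design uses 20 of the 29 arrays of the series, replicates 1 to 5 of 4 groups, and 7153 of the 12393 genes on the array passed the intensity filter and were tested. Cells came from the marrow of C57BL/6 mice, wild type and 8 weeks of age, and were grown for 7 days in Teflon bags with CSF-1 (10 ng/ml). All groups then received CSF-1 (10 ng/ml) for another 24 h, together with IL-4 plus IL-6 (10 ng/ml of each), IL-4 (10 ng/ml), IL-6 (10 ng/ml) or no further cytokine (unstimulated). A later comparison adds IL-10 (10 ng/ml) and IL-4 plus IL-10 (10 ng/ml of each), with 3 arrays each, and uses all 8 unstimulated arrays. These cells also had CSF-1 (10 ng/ml) for the 24 h. CSF-1 was thus shared by every group, and the cells were cultured macrophages, not macrophages taken from a tissue. RNA was hybridised to Affymetrix 3' expression arrays, and every level below is a deposited log2 intensity of 1 probe set.

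IL-4 acts through the IL-4 receptor alpha chain and the transcription factor STAT6, and drives the alternative activation programme of macrophages, with arginase, chitinase-like proteins and C-type lectins. IL-6 acts through its receptor and the shared gp130 chain on STAT3, whose target Socs3 encodes a feedback inhibitor of gp130 signalling. Macrophages of tumours and healing tissue can meet both cytokines at once.

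The interaction of a gene was the IL-4+IL-6 level minus the IL-4 level, minus the IL-6 level, plus the unstimulated level. On the log2 scale an interaction of 0 means that the 2 effects add, so that their folds multiply. A positive interaction means that the combination lay above the additive prediction and a negative one that it lay below. Genes were called at an adjusted p under 0.05 (limma, Benjamini-Hochberg over all genes tested), and an interaction of at least 1 in absolute log2 is counted as large. Nothing in the labels ties an array to its own mouse or culture, and p-values therefore measure only the spread among these arrays, which may be technical.

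No array duplicated another, medians ran from 6.95 to 7.03, and arrays correlated with each other at 0.975 to 0.998. The 3' minus 5' difference of the Actb control probe sets, a sign of RNA integrity, was 0.363 ± 0.019 log2 with IL-4+IL-6, 0.322 ± 0.017 with IL-4, 0.248 ± 0.019 with IL-6 and 0.318 ± 0.0089 unstimulated (SD, n = 5 each). The same difference for Gapdh was 0.023 with IL-4+IL-6, -0.014 with IL-4, -0.029 with IL-6 and -0.048 unstimulated. Both measures were highest with the combination, and their part in the interactions was not tested.

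Non-additivity was widespread and ran in both directions. Of the genes tested, 2939 (41.1%) had a called interaction, 1483 (20.7%) above the additive prediction and 1456 (20.4%) below it. These shares are the background for every list count given below. Large interactions numbered 107 above (1.5%) and 100 below (1.4%), and all 207 had the same sign within each of the 5 replicate numbers. This agreement is partly set by the choice of genes, because the interaction is the mean of those 5 values. Most called interactions were small, with a median absolute size of 0.33, and over all genes the median interaction was 0.0031 and its 5th and 95th percentiles were -0.59 and 0.51. Among the called genes, 2615 had all 4 group means at or above the intensity filter (log2 6.99) and 324 had at least 1 mean under it. Signal over background was not tested under the filter, so the size of those interactions may be limited by background, and no fold is given for them.

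Either cytokine alone also changed many genes. Against unstimulated arrays, 29.6% of genes were called higher and 31.0% lower with IL-4, 17.0% and 20.1% with IL-6, and 36.6% and 37.8% with IL-4+IL-6. Against IL-4 alone the combination raised 31.3% and lowered 33.3%, and against IL-6 alone 35.9% and 34.7%. These comparisons share arrays with the interaction. The combination often reached a level that no other group had. All 5 IL-4+IL-6 arrays lay above the 15 other arrays for 1013 genes (14.2%) and below them for 979 (13.7%). Among large interactions this held for 95 of the 107 above the prediction and for 64 of the 100 below it.

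**Figure D1:**
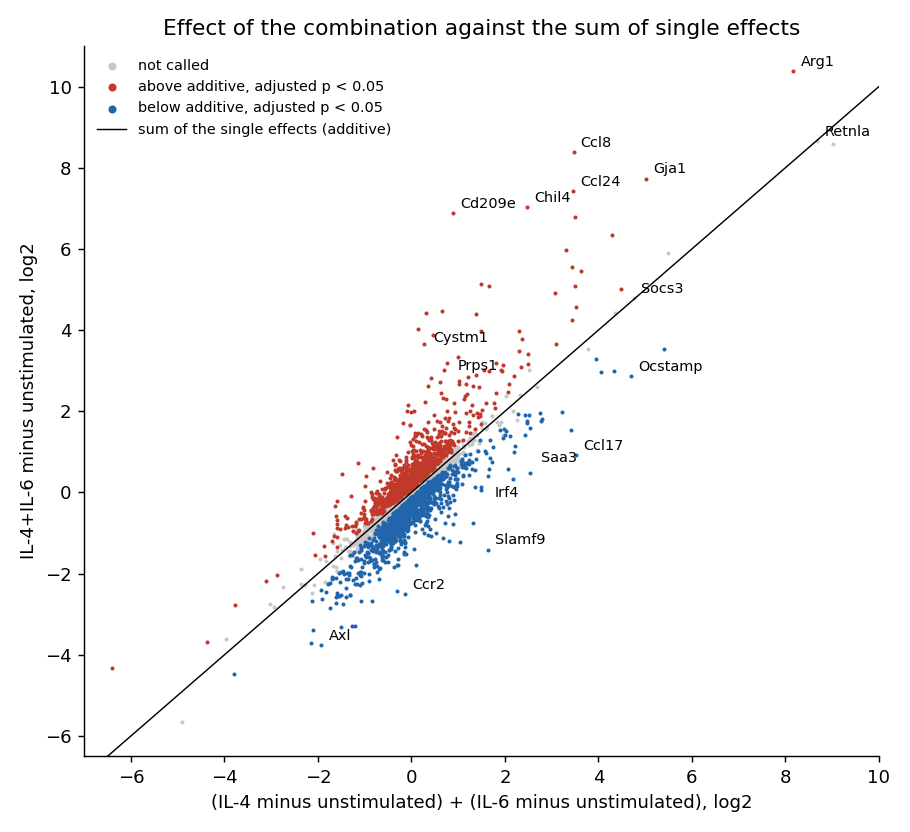
Each point is 1 of 7153 genes. The x axis is the sum of the IL-4 and the IL-6 effect and the y axis the effect of IL-4+IL-6, all against unstimulated arrays in log2, with the line marking equality. The 1483 red genes lie above the line, with Cd209e and Ccl8 farthest from it, the 1456 blue genes lie below it, and Socs3 and Retnla are close to it. Both axes use the same unstimulated arrays.

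The called genes were sorted by the signs of the interaction, of the summed single effects and of the effect of the combination. This is a description, since all 3 share arrays and the signs of the effects were taken without a test or a smallest size. Synergy of increases, where the summed effects were positive and the combination went further, held 778 genes (26.5% of those called). Synergy of decreases held 821 genes (27.9%). Antagonism was less frequent, with 258 genes (8.78%) whose summed increase was cut short and 246 (8.37%) whose summed decrease was cut short. In the remaining genes the combination moved against the sum of the single effects, to an increase in 459 (15.6%) and to a decrease in 377 (12.8%).

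Several of the largest synergies of increases were in lectins and other genes of alternative activation whose means in the 3 other groups lay under the filter. Cd209e encodes a C-type lectin of the DC-SIGN family. Cd209e read 10.94, 11.06, 10.98, 10.76 and 11.03 on the 5 IL-4+IL-6 arrays. It read 4.47, 4.42, 4.46, 4.41 and 4.62 with IL-4, 4.62, 4.62, 4.55, 4.37 and 4.68 with IL-6, and 4.09, 4.09, 4.11, 4.05 and 4.04 unstimulated. Only the 5 combination arrays lay above the filter, and no array of the other groups came near them. The interaction was 5.99 ± 0.082 (SE, adjusted p = 1.78e-21).

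Cd209a, another lectin of the family, averaged 10.10 with IL-4+IL-6 against 5.66 with IL-4, 6.03 with IL-6 and 5.68 unstimulated, an interaction of 4.10 ± 0.16 (adjusted p = 8.31e-14). Chil4, which encodes the chitinase-like protein Ym2, averaged 11.38 against 6.81, 4.34 and 4.34 in the same order of groups (interaction 4.57 ± 0.17, adjusted p = 5.61e-14). IL-6 alone gave Chil4 no called change (adjusted p = 1), while with IL-4 present the same cytokine added 4.57 ± 0.12 (adjusted p = 1.7e-17). Cd163, the scavenger receptor for haemoglobin bound to haptoglobin, averaged 8.88 with IL-4+IL-6 and 5.14, 4.68 and 4.84 with IL-4, IL-6 and neither, an interaction of 3.90 ± 0.17 (adjusted p = 7.01e-13). Rbp4, the plasma carrier of retinol, had an interaction of 3.81 ± 0.17 (adjusted p = 6.35e-13). Ch25h, which makes 25-hydroxycholesterol, had one of 3.66 ± 0.18 (adjusted p = 4.35e-12). Members of the Cd209 and chitinase-like families resemble each other in sequence, and a probe set may take up RNA of a relative.

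STAT factors bind palindromes of TTC and GAA, with a spacing of 3 bases favoured by STAT3 and others and of 4 bases by STAT6. The promoters shown are of genes at the ends of the interaction range that carry such a match, with Socs3 as the IL-6 target that gave no called interaction. They are the 250 bases before and 50 after the gene start in the RefSeq annotation of GRCm38.p6, 5′ to 3′ on the strand of the gene, with each match (TTC, then 3 or 4 bases of any kind, then GAA) in capitals. Cd209e lies at chr8:3854237-3854536 on the minus strand, Chil4 at chr3:106219430-106219729 on the minus strand, Ccl17 at chr8:94810203-94810502 on the plus strand and Socs3 at chr11:117969317-117969616 on the minus strand.
Cd209e: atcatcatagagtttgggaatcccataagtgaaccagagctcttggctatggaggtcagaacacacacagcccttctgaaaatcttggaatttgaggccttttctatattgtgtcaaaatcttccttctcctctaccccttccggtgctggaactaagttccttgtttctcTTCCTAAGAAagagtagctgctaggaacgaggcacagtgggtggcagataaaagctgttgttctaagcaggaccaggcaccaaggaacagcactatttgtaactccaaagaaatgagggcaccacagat
Chil4: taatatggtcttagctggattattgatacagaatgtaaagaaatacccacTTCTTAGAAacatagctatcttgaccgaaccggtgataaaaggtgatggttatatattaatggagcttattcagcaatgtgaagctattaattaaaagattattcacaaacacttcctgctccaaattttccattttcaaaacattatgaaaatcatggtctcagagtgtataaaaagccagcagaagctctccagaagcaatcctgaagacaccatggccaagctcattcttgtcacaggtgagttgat
Ccl17: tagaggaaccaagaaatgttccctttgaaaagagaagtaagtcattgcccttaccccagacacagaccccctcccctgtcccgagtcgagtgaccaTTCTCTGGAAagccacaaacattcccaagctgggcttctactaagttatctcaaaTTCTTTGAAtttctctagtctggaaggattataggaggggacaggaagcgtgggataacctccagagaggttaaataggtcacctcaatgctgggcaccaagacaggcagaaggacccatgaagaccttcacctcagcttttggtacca
Socs3: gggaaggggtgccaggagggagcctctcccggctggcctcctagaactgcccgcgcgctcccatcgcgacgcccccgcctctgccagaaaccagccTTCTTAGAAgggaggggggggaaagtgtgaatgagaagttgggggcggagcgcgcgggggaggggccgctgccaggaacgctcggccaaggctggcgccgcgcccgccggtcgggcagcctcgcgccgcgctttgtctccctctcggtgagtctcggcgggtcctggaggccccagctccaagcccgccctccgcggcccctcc
Cd209e holds a match of the 4-base spacing that begins 79 bases before the gene start, and Chil4 and Socs3 hold the same 3-base-spaced letters, TTCTTAGAA, 200 and 154 bases before theirs. Ccl17, which had the largest negative interaction among genes with a mean under the filter, holds both spacings. Each motif reads the same on both strands, so 1 search covers both, and the 2 motifs cannot match at the same place. Of the 23 genes named for the largest positive interactions, 18 had a promoter in the table, 1 (5.56%) with the 3-base and 2 (11.1%) with the 4-base spacing. Of the 23 with the largest negative interactions 18 had one, 3 (16.7%) and 1 (5.56%). Among the 5916 tested genes with a promoter the shares were 8.05% and 6.74%. A match is a description of these letters and not a binding site.

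Chemokines were divided between strong synergy and loss. Of 19 tested, 7 lay above the additive prediction, 10 below and 2 were not called, with a median interaction of -0.42 against 0.0031 over all genes. Ccl8, a monocyte chemoattractant, had the largest interaction of the list. Ccl8 read 14.30, 14.41, 14.27, 14.23 and 14.14 with IL-4+IL-6. It read 6.91, 6.36, 6.48, 6.32 and 6.57 with IL-4, 8.58, 8.80, 8.66, 8.52 and 9.05 with IL-6, and 5.48, 6.25, 5.81, 5.96 and 5.96 unstimulated. IL-6 alone raised Ccl8 by 2.83 ± 0.13 and IL-4 by 0.64 ± 0.13, and the interaction was 4.91 ± 0.18 (adjusted p = 5.61e-14). Among its relatives, Ccl12 with an interaction of 3.29 ± 0.24, Ccl7 with 2.12 ± 0.18 and Ccl2, the ligand of Ccr2, with 1.18 ± 0.15 went the same way. Ccl1 and Ccl11 did not pass the filter. Ccl8 and Ccl12 read under the filter on every IL-4 and every unstimulated array. Ccl2 averaged 12.15 with IL-4+IL-6, 10.31 with IL-4, 9.65 with IL-6 and 9.0 unstimulated.

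Ccl24, an eosinophil attractant of the IL-4 programme, read 14.04, 13.90, 13.73, 13.83 and 13.73 with IL-4+IL-6. It read 10.51, 10.09, 9.83, 10.12 and 9.52 with IL-4, 6.29, 6.69, 6.11, 6.30 and 6.06 with IL-6, and 6.61, 6.39, 6.19, 6.38 and 6.57 unstimulated. IL-6 alone gave no called change (-0.14 ± 0.14, adjusted p = 0.49), and the interaction was 3.97 ± 0.2 (adjusted p = 5.23e-12).

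Ccl17, a chemokine that attracts T cells and is also induced by IL-4, behaved in the opposite way. It read 6.12, 5.58, 6.08, 5.87 and 5.80 with IL-4+IL-6, against 8.80, 8.75, 8.23, 8.28 and 8.14 with IL-4. With IL-6 it read 4.68, 4.98, 5.06, 5.29 and 5.07, and unstimulated 5.09, 5.05, 4.96, 4.76 and 5.00. Every combination array lay below every IL-4 array and above every other array. IL-6 alone gave Ccl17 no called change (0.05 ± 0.13, adjusted p = 0.82), and in the presence of IL-4 it lowered it by 2.55 log2 (SE 0.13, adjusted p = 9.7e-13), an interaction of -2.60 ± 0.19 (adjusted p = 9.8e-10). Ccl22, which shares the receptor of Ccl17, averaged 7.14 with IL-4+IL-6 against 9.14 with IL-4, 6.05 with IL-6 and 6.56 unstimulated (interaction -1.49 ± 0.17, adjusted p = 6.85e-07). The inflammatory chemokines Cxcl10 (-1.49 ± 0.14), Ccl5 (-1.06 ± 0.14) and Cxcl2 (-1.02 ± 0.14) were also called below the prediction. Cxcl10 and Cxcl2 read under the filter on every array with IL-4, alone or with IL-6.

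The genes of alternative activation moved in both directions. Of 38 tested, 18 lay above the prediction, 12 below and 8 were not called, with 13 large interactions above and 8 below and a median of 0.29. Arg1, the arginase that hydrolyses arginine to ornithine, read 14.26, 14.18, 14.18, 14.21 and 14.20 with IL-4+IL-6. It read 11.45, 11.45, 11.77, 11.39 and 11.86 with IL-4, 4.18, 4.36, 4.14, 4.28 and 4.31 with IL-6, and 3.63, 3.98, 3.68, 3.83 and 4.04 unstimulated. The level with both cytokines exceeded that with IL-4 by 2.63 ± 0.087, and the interaction was 2.21 ± 0.12 (adjusted p = 2.09e-11). Pdcd1lg2, a ligand of the PD-1 checkpoint receptor, had an interaction of 2.66 ± 0.2 and Hbegf, an EGF receptor ligand, one of 1.38 ± 0.18.

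Irf4, a transcription factor of the IL-4 programme, read 7.40, 6.65, 7.01, 7.16 and 7.30 with IL-4+IL-6, against 10.06, 9.91, 9.52, 9.69 and 9.51 with IL-4. It read 6.00, 5.73, 5.87, 6.10 and 6.05 with IL-6 and 6.86, 6.78, 6.50, 7.01 and 6.66 unstimulated. The combination overlapped the unstimulated arrays, so that most of the IL-4 increase was missing, and the interaction was -1.83 ± 0.19 (adjusted p = 1.29e-07). Ocstamp, which serves the fusion of macrophages and osteoclasts, averaged 8.82 with IL-4+IL-6, 11.29 with IL-4, 5.32 with IL-6 and 5.96 unstimulated (interaction -1.83 ± 0.27, adjusted p = 1.41e-05). Its 5 values within replicate numbers were wide apart, between -2.70 and -0.80. Ear3, an eosinophil-associated ribonuclease, had -1.87 ± 0.38 (adjusted p = 0.000522), and its probe set may be shared by its relatives.

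Other hallmark genes of IL-4 showed no departure from additivity that passed the test. Retnla averaged 14.59 with IL-4+IL-6 and 14.56 with IL-4, against 5.99 with IL-6 and 5.93 unstimulated, an interaction of -0.02 ± 0.12 (adjusted p = 0.909). These levels lie close to the highest value of any array and probe set (15.13), where a further increase may not show. For the mannose receptor Mrc1 the 4 means were 14.56, 12.89, 13.74 and 12.15, and the interaction was 0.08 ± 0.066 (adjusted p = 0.367), with the same limit at its upper end.

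**Figure D2:**
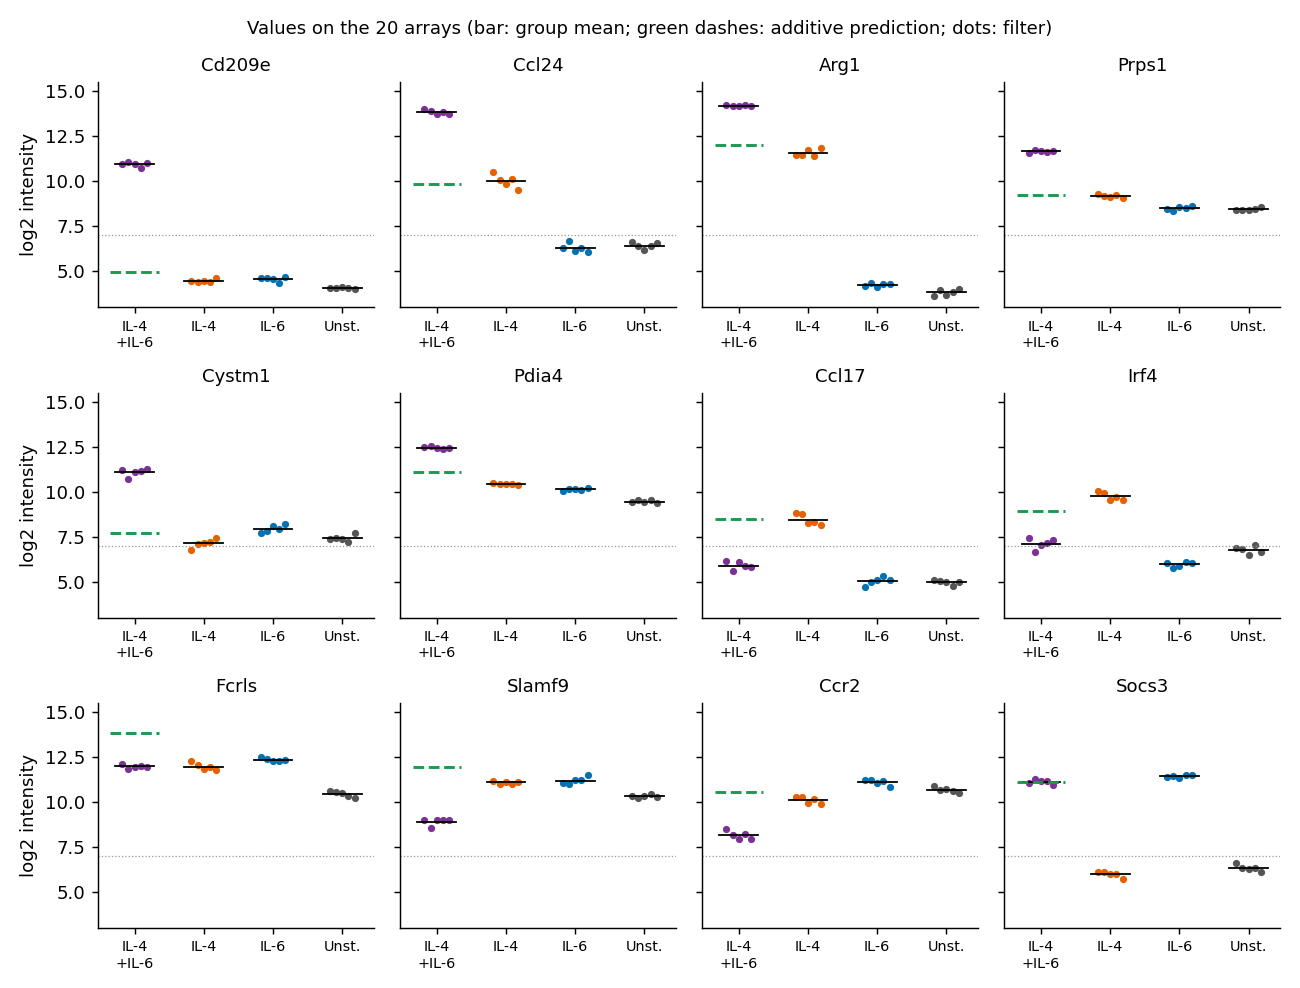
Log2 intensity of 12 genes on the 20 arrays, with IL-4+IL-6 at the left and unstimulated arrays at the right of each panel. Points are arrays, black bars group means, green dashes the additive prediction for the combination and the dotted line the intensity filter (6.99). Cd209e with both cytokines averages 10.95 where 4.97 was predicted, Slamf9 8.89 where 11.95 was predicted, and Socs3 lies on its prediction.

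Genes of arginine and polyamine metabolism extended the pattern of Arg1. Of 17 tested, 8 lay above the prediction, 2 below and 7 were not called, with a median of 0.21. Slc7a2, a carrier that brings arginine into the cell, averaged 10.91 with IL-4+IL-6, 9.44 with IL-4, 5.71 with IL-6 and 5.82 unstimulated (interaction 1.59 ± 0.14, adjusted p = 2.84e-08). Odc1, which turns ornithine into putrescine, had an interaction of 0.83 ± 0.12 (adjusted p = 8.23e-06). Gatm, which uses arginine for creatine synthesis, had -0.71 ± 0.08 (adjusted p = 6.22e-07).

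The components that receive and pass on both signals were split. Of 28 cytokine receptors and JAK-STAT genes tested, 7 lay above the prediction, 10 below and 11 were not called (median -0.09). Beside these stand 20.7% above and 20.4% below over all genes tested. Il4ra, the signalling chain of the IL-4 receptor, read 11.43, 11.34, 11.31, 11.33 and 11.31 with IL-4+IL-6. It read 7.86, 7.63, 7.58, 7.63 and 7.24 with IL-4, 10.76, 10.77, 10.67, 10.65 and 11.04 with IL-6, and 8.10, 7.98, 8.00, 8.05 and 7.54 unstimulated. IL-4 alone lowered Il4ra by 0.35 log2 (SE 0.1, adjusted p = 0.0072), but in the presence of IL-6 the same cytokine raised it by 0.57 ± 0.1 (adjusted p = 6.6e-05), an interaction of 0.91 ± 0.15 (adjusted p = 4.39e-05). The kinase Jak2 averaged 11.71 ± 0.033 with IL-4+IL-6, 10.33 ± 0.068 with IL-4, 9.51 ± 0.038 with IL-6 and 9.35 ± 0.041 unstimulated (SD, n = 5 each). Its interaction was 1.22 ± 0.047 (adjusted p = 8.31e-14), 2.33-fold above the product of the folds.

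Il6st, which encodes gp130, averaged 11.83, 10.85, 9.80 and 9.68 in the 4 groups (interaction 0.86 ± 0.074, adjusted p = 1.44e-08). Il6ra, which encodes the IL-6-binding chain, had the opposite sign (-0.55 ± 0.18, adjusted p = 0.0192). Il13ra1, which pairs with the IL-4 receptor alpha chain, averaged 5.24 with IL-4+IL-6, 5.45 with IL-4, 7.36 with IL-6 and 6.47 unstimulated, where only the IL-6 mean is above the filter (interaction -1.10 ± 0.14, adjusted p = 1.66e-06). Il1r1, the IL-1 receptor, had the largest interaction of the list, 2.34 ± 0.14 (adjusted p = 8.55e-11), with a mean of 8.67 for the combination and all 3 other means under the filter.

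Stat3, Stat6 and Socs3 gave no called interaction. Socs3 read 11.04, 11.25, 11.17, 11.17 and 10.95 with IL-4+IL-6. It read 6.11, 6.11, 5.97, 6.01 and 5.69 with IL-4, 11.40, 11.44, 11.35, 11.48 and 11.51 with IL-6, and 6.62, 6.32, 6.26, 6.34 and 6.12 unstimulated. IL-6 raised it whether IL-4 was present or not, and the interaction was 0.03 ± 0.12 (adjusted p = 0.874). All IL-4 and unstimulated values of Socs3 lay under the filter (6.99), so its IL-4 effect, and with it the interaction, may be limited by background. The interaction of Stat3 was 0.05 ± 0.068 (adjusted p = 0.621) and that of Stat6 -0.01 ± 0.054 (adjusted p = 0.88). Among 16 SOCS and other feedback inhibitors tested, 4 lay above, 4 below and 8 were not called, beside 20.7% above and 20.4% below over all genes tested, and with the replicate number as a block 7 lay above and 5 below. Socs1, an inhibitor of the JAK kinases, had 0.59 ± 0.13 (adjusted p = 0.00137) and Ptpn2, a phosphatase of JAKs and STATs, 0.63 ± 0.055 (adjusted p = 1.81e-08).

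Genes that respond to STAT3 did not follow Socs3 as a group. Of 35 tested, 13 lay above the prediction, 14 below and 8 were not called (median 0.03), with 8 large above and 4 large below. Gja1, the gap junction protein connexin 43, read 12.30, 12.43, 12.45, 12.35 and 12.47 with IL-4+IL-6. It read 3.95, 4.15, 4.65, 4.35 and 4.54 with IL-4, 9.92, 9.90, 9.90, 9.91 and 10.54 with IL-6, and 4.25, 5.04, 4.74, 4.38 and 4.96 unstimulated. IL-4 alone gave Gja1 no called change (-0.35 ± 0.15, adjusted p = 0.059), and the interaction was 2.72 ± 0.22 (adjusted p = 5.39e-09). The probe set names of Gja1 and Socs3 carry the mark that Affymetrix gives to probes shared with other sequences. Fgl2, a fibrinogen-like protein of immune regulation, had 1.40 ± 0.22 (adjusted p = 3.6e-05), and Pdgfc, a platelet-derived growth factor, 3.01 ± 0.18 (adjusted p = 8.39e-11).

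Saa3, an acute-phase protein of macrophages, went below the prediction. It read 9.19, 9.30, 8.68, 8.82 and 8.11 with IL-4+IL-6. It read 7.74, 7.71, 7.62, 7.33 and 7.10 with IL-4, 11.88, 11.94, 11.55, 11.63 and 11.63 with IL-6, and 9.15, 8.15, 8.49, 8.03 and 7.93 unstimulated. The combination overlapped the unstimulated arrays although IL-6 alone raised Saa3 by 3.38 ± 0.22, and the interaction was -2.06 ± 0.31 (adjusted p = 1.81e-05). Lifr, the receptor of the related cytokine LIF, likewise had -1.36 ± 0.18 (adjusted p = 4.83e-06), with 7.83 for IL-4+IL-6, 7.23 for IL-4, 9.67 for IL-6 and 7.71 unstimulated.

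Among genes with all 4 means above the filter, the largest positive interaction was that of Cystm1, which encodes a small cysteine-rich membrane protein. Cystm1 read 11.19, 10.68, 11.07, 11.16 and 11.25 with IL-4+IL-6. It read 6.75, 7.11, 7.14, 7.22 and 7.44 with IL-4, 7.72, 7.82, 8.07, 7.90 and 8.22 with IL-6, and 7.38, 7.40, 7.38, 7.19 and 7.68 unstimulated. IL-4 alone gave no called change (-0.27 ± 0.13, adjusted p = 0.065) and IL-6 alone raised it by 0.54 ± 0.13 (adjusted p = 0.0019). The interaction was 3.40 ± 0.18 (adjusted p = 8.92e-12), which is 10.6-fold above the product of the single folds.

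Prps1, which makes the ribose donor of nucleotide synthesis, read 11.56, 11.73, 11.68, 11.64 and 11.69 with IL-4+IL-6. It read 9.29, 9.16, 9.14, 9.26 and 9.07 with IL-4, 8.46, 8.36, 8.57, 8.52 and 8.61 with IL-6, and 8.39, 8.42, 8.43, 8.47 and 8.60 unstimulated. IL-6 alone gave no called change (0.04 ± 0.052, adjusted p = 0.55), and the interaction was 2.43 ± 0.074 (adjusted p = 4.66e-15), or 5.41-fold. Cd81, a tetraspanin, averaged 11.77 with IL-4+IL-6 and 9.88, 9.58 and 9.77 with IL-4, IL-6 and neither (interaction 2.08 ± 0.1, adjusted p = 3.01e-12). Dgka, a diacylglycerol kinase, had 2.01 ± 0.11 and Cebpd, a transcription factor of the acute phase, 1.97 ± 0.14. Gadd45a, a stress and growth-arrest gene, had 1.95 ± 0.078 and the core fucosyltransferase Fut8 1.70 ± 0.078. The metallothionein Mt2, a metal-binding protein, had 1.51 ± 0.15, and the galactose lectin Clec10a 1.49 ± 0.18. Mylip, a ubiquitin ligase that lowers the LDL receptor, had 1.42 ± 0.11.

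Gas6 and its receptors Axl and Mertk, which serve the uptake of dying cells, moved apart. Gas6 averaged 10.89 with IL-4+IL-6, 8.02 with IL-4, 11.16 with IL-6 and 10.17 unstimulated. IL-4 alone lowered Gas6 by 2.15 log2 (SE 0.08), while the combination lay 0.72 ± 0.08 above unstimulated arrays, so the interaction was 1.88 ± 0.11 (adjusted p = 6.71e-11). Axl averaged 6.59 with IL-4+IL-6, 9.61 with IL-4, 9.17 with IL-6 and 10.35 unstimulated (interaction -1.84 ± 0.17, adjusted p = 2.99e-08). Mertk averaged 9.63, 8.72, 9.71 and 9.44 in the 4 groups (interaction 0.64 ± 0.11, adjusted p = 0.000122).

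The largest negative interaction with all means above the filter was that of Slamf9, a receptor of the SLAM family. Slamf9 read 9.0, 8.54, 8.97, 8.98 and 8.99 with IL-4+IL-6. It read 11.16, 10.99, 11.10, 11.02 and 11.11 with IL-4, 11.04, 10.96, 11.22, 11.22 and 11.47 with IL-6, and 10.34, 10.21, 10.30, 10.41 and 10.29 unstimulated. Each cytokine raised it alone, by 0.77 ± 0.088 and 0.87 ± 0.088, and together they brought it below the unstimulated arrays, an interaction of -3.05 ± 0.12 (adjusted p = 1.53e-13).

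Ccr2, the receptor that draws monocytes to Ccl2, read 8.51, 8.15, 7.96, 8.20 and 7.93 with IL-4+IL-6. It read 10.29, 10.27, 9.93, 10.16 and 9.86 with IL-4, 11.19, 11.21, 11.07, 11.14 and 10.81 with IL-6, and 10.87, 10.64, 10.70, 10.61 and 10.49 unstimulated. The combination lay far below all other arrays, with an interaction of -2.38 ± 0.15 (adjusted p = 1.79e-10). Clec4b1, a C-type lectin, had -2.25 ± 0.1 (adjusted p = 1.42e-12), the semaphorin Sema4d -2.08 ± 0.12 (adjusted p = 3.38e-11) and the phosphatase Ptpn22, which restrains immune receptor signalling, -1.83 ± 0.12 (adjusted p = 1.79e-10). The actin-binding coronin Coro1a averaged 10.33 ± 0.074 with IL-4+IL-6, 11.70 ± 0.057 with IL-4, 12.57 ± 0.031 with IL-6 and 12.48 ± 0.073 unstimulated (SD, n = 5 each), an interaction of -1.45 ± 0.057 (adjusted p = 1.05e-13).

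Fcrls, a scavenger receptor related to Fc receptors, was raised by IL-4 alone to about the level of the combination. IL-6 alone raised it further, with every IL-6 array above every combination array. It read 12.09, 11.85, 11.96, 12.00 and 11.93 with IL-4+IL-6. It read 12.24, 12.02, 11.81, 11.94 and 11.76 with IL-4, 12.47, 12.35, 12.25, 12.25 and 12.31 with IL-6, and 10.60, 10.53, 10.47, 10.33 and 10.22 unstimulated. The combination overlapped IL-4 alone (difference 0.01 ± 0.081, adjusted p = 0.93), an interaction of -1.88 ± 0.12 (adjusted p = 8.39e-11). The additive prediction was 13.85, and the highest value on any array and probe set was 15.13.

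**Figure D3:**
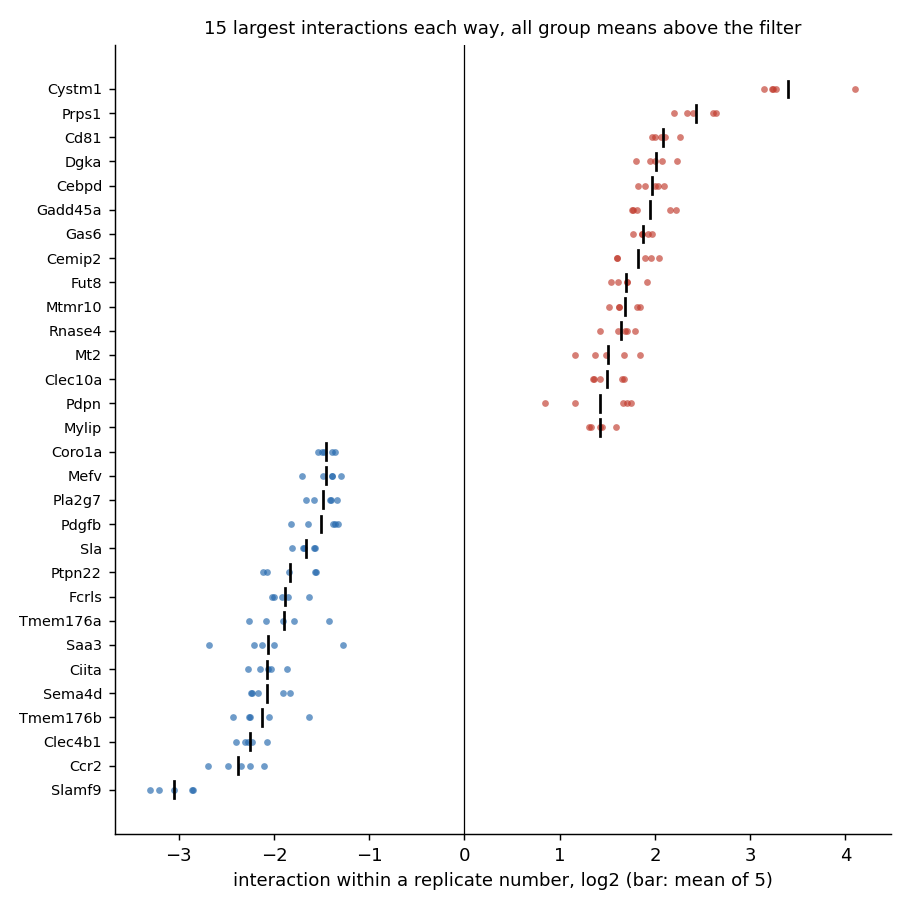
Interaction within each of the 5 replicate numbers (points) and their mean (bars), in log2, for the 15 largest positive and 15 largest negative called interactions among genes with all 4 group means above the filter. No point crosses 0, and replicate 1 of Cystm1, at 4.10, lies apart from its other points between 3.15 and 3.27. The genes were chosen on the mean of these points.

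Genes of protein folding and secretion leaned above the prediction by small amounts. Of 48 genes of the IRE1-XBP1 and ATF6 branches of the unfolded protein response, 23 lay above, 5 below and 20 were not called, with a median of 0.15. Pdia4, a protein disulfide isomerase of the endoplasmic reticulum, read 12.47, 12.51, 12.45, 12.38 and 12.42 with IL-4+IL-6. It read 10.45, 10.41, 10.43, 10.41 and 10.35 with IL-4, 10.06, 10.15, 10.16, 10.11 and 10.20 with IL-6, and 9.43, 9.53, 9.40, 9.52 and 9.35 unstimulated. Both cytokines raised it alone, and the interaction was 1.35 ± 0.054 (adjusted p = 1.4e-13), 2.54-fold above the product of the folds. The chaperone Hspa5 (-0.02 ± 0.039, adjusted p = 0.694) and the transcription factor Xbp1 (-0.07 ± 0.054, adjusted p = 0.329) gave no call, and Atf6 lay below (-0.49 ± 0.068, adjusted p = 7.8e-06). Ern1, which encodes the sensor IRE1, did not pass the filter.

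Of 27 genes of the PERK-ATF4 branch and amino acid synthesis, 15 lay above, 0 below and 12 were not called (median 0.22), and with the replicate number as a block 17 lay above and 2 below. Atf5, a transcription factor of this branch, averaged 10.20 with IL-4+IL-6, 8.29 with IL-4, 8.20 with IL-6 and 7.59 unstimulated (interaction 1.29 ± 0.083, adjusted p = 1.79e-10). Chac1, which degrades glutathione, had 1.38 ± 0.19 (adjusted p = 5.73e-06) with all single-cytokine and unstimulated means under the filter. Of 43 genes of secretory transport, 26 lay above, 1 below and 16 were not called (median 0.18). None was large, with 0.47 ± 0.047 for the coat protein Sec23b and 0.45 ± 0.045 for the cargo receptor subunit Mcfd2.

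Cathepsins, the lysosomal proteases, went both ways. Of 13 tested, 5 lay above the prediction, 5 below and 3 were not called. Ctsl averaged 14.75 ± 0.048 with IL-4+IL-6, 14.15 ± 0.053 with IL-4, 14.62 ± 0.029 with IL-6 and 14.33 ± 0.029 unstimulated (SD, n = 5 each), an interaction of 0.31 ± 0.044 (adjusted p = 7.52e-06). Ctsb had 0.09 ± 0.031 (adjusted p = 0.0221), and a test of the 5 interactions within replicate numbers gave it an adjusted p of 0.0921. Ctss (-0.04 ± 0.04) and Ctsz (0.08 ± 0.039) were not called. Ctsl, Ctsb, Ctss and Ctsz read between 13.96 and 14.81 in all groups. The highest value of any array and probe set was 15.13, so a further increase of these genes may not show. The bone-matrix protease Ctsk (0.63 ± 0.1) and legumain, Lgmn, which processes other cathepsins (0.85 ± 0.064), lay above. Ctsc, which activates serine proteases of granules, averaged 12.58 with IL-4+IL-6, 12.11 with IL-4, 13.97 with IL-6 and 12.80 unstimulated (interaction -0.70 ± 0.13, adjusted p = 0.000156). Ctsh had -0.67 ± 0.11 (adjusted p = 6.69e-05). Cst7, an inhibitor of cysteine cathepsins, averaged 9.22 with IL-4+IL-6, 7.57 with IL-4, 6.78 with IL-6 and 6.21 unstimulated (interaction 1.09 ± 0.092, adjusted p = 1e-08). Of 36 other lysosomal genes, 16 lay above, 6 below and 14 were not called, among them subunits of the proton pump such as Atp6v1h (0.67 ± 0.055) and Atp6v1a (0.60 ± 0.042).

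The cell cycle genes lay almost wholly below the prediction. Of 45 tested, 42 lay below the additive prediction, 0 above and 3 were not called, beside 20.4% of all genes below. Their median effect was -0.73 with IL-4+IL-6, 0.10 with IL-4 and -0.33 with IL-6, where the median sum of the single effects was -0.20, and their median interaction was -0.59. No member reached a large interaction. Mki67, a marker of cycling cells, averaged 10.30 with IL-4+IL-6, 11.23 with IL-4, 10.88 with IL-6 and 11.26 unstimulated (interaction -0.56 ± 0.095, adjusted p = 7.8e-05). The thymidine kinase Tk1 had -0.96 ± 0.14, Uhrf1, which maintains DNA methylation, -0.88 ± 0.14, and the replication helicase subunit Mcm7 -0.80 ± 0.11. In bulk RNA, fewer cycling cells and less of these RNAs per cell cannot be told apart.

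Antigen presentation on MHC class II and inflammatory genes also lay below. Of 9 MHC class II genes, 7 lay below, 0 above and 2 were not called (median -0.79). Ciita, the transactivator of these genes, averaged 7.40 ± 0.400 with IL-4+IL-6, 9.16 ± 0.450 with IL-4, 8.48 ± 0.507 with IL-6 and 8.16 ± 0.477 unstimulated (SD, n = 5 each). Its arrays were wide apart within groups, but same-numbered arrays moved together, with replicate 1 highest and replicate 5 lowest in every group. The interaction was -2.07 ± 0.37 (adjusted p = 0.000141). This SE is from the fit without a block, which counts the shared shift as spread although it cancels within numbers. The class II chain H2-Ab1 averaged 12.29 with IL-4+IL-6, 13.25 with IL-4, 12.69 with IL-6 and 12.67 unstimulated (interaction -0.98 ± 0.23, adjusted p = 0.002), and H2-DMa, which loads peptides, had -1.10 ± 0.24 (adjusted p = 0.00102). For H2-Ab1 and H2-DMa, too, replicate 1 was highest and replicate 5 lowest in every group, and their SEs hold the same shared shift. Of 23 genes of classical inflammatory activation, 15 lay below, 1 above and 7 were not called (median -0.37), and with the replicate number as a block 16 lay below and 3 above. Il1b averaged 6.24 with IL-4+IL-6 and 6.26 with IL-4, both under the filter, against 8.79 with IL-6 and 7.32 unstimulated (interaction -1.50 ± 0.14, adjusted p = 6.4e-08). Nfkbiz, a regulator of NF-kappaB target genes, had -1.22 ± 0.11 (adjusted p = 1.8e-08). The endotoxin co-receptor Cd14 averaged 10.48 with IL-4+IL-6, 11.28 with IL-4, 13.23 with IL-6 and 13.02 unstimulated (interaction -1.01 ± 0.087, adjusted p = 1.54e-08).

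Genes of lipid and carbon metabolism were examined next. Of 29 genes of cholesterol and fatty acid synthesis, 6 lay above, 4 below and 19 were not called (median 0.03), beside 20.7% above and 20.4% below over all genes tested. Both cytokines together raised Mvd, an enzyme of the mevalonate pathway, to 9.50 against 8.32 with IL-4, 8.37 with IL-6 and 7.61 unstimulated. Of 13 genes of cholesterol efflux and oxysterols, 9 lay below and 3 above (median -0.25), with Pltp, the phospholipid transfer protein, at -1.14 ± 0.18 and Ch25h at the other end. Of 18 glycolysis genes, 10 lay below, 1 above and 7 were not called (median -0.19), and with the replicate number as a block 10 lay below and 2 above. Pdk1, a kinase that inhibits pyruvate dehydrogenase, had -1.08 ± 0.16. Ppargc1b, a coactivator of mitochondrial genes and of the IL-4 response, averaged 8.91 with IL-4+IL-6, 10.16 with IL-4, 7.88 with IL-6 and 7.92 unstimulated (interaction -1.22 ± 0.13, adjusted p = 2.14e-07).

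**Figure D4:**
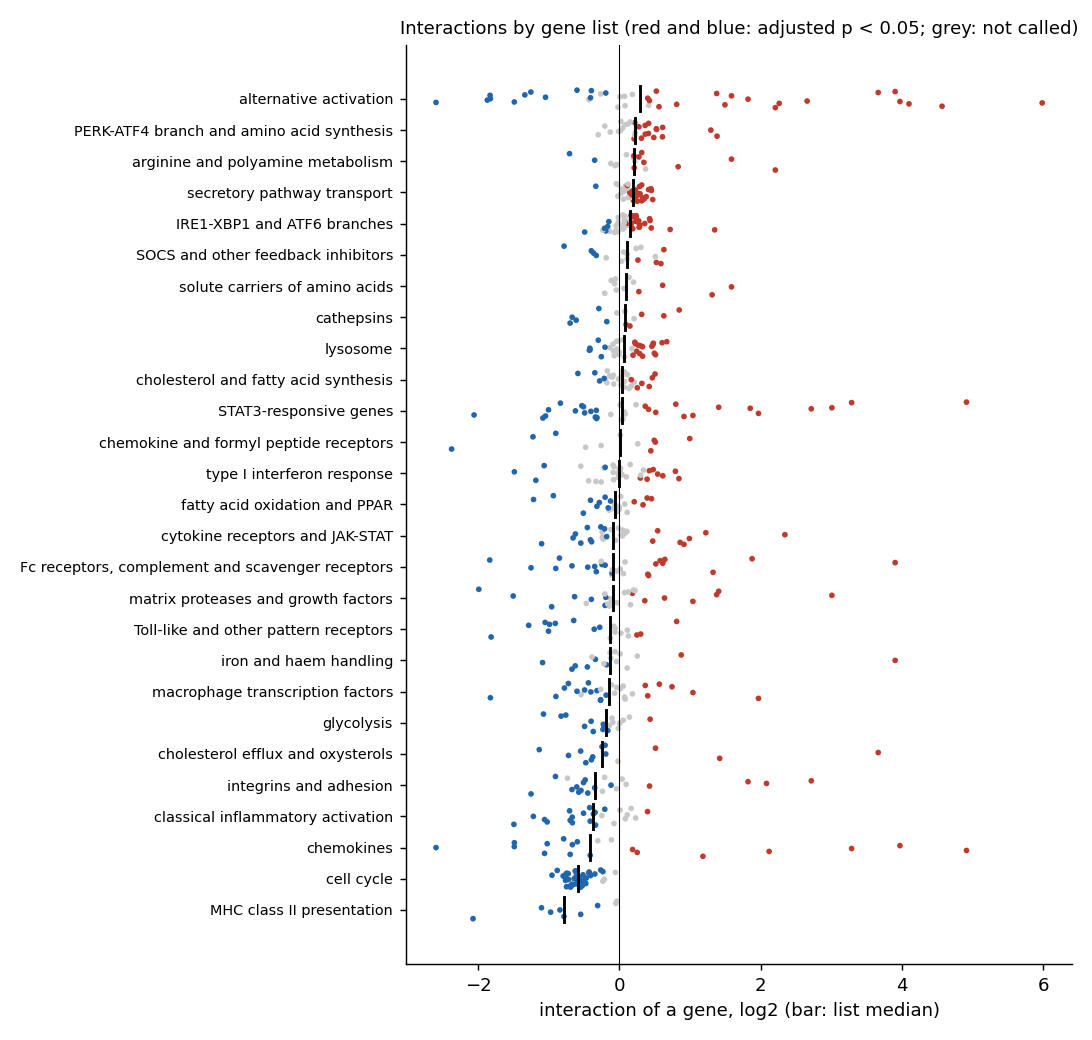
Interaction in log2 of every tested gene of each list with at least 8 tested genes, ordered by the list median (bar), with called genes in red (above additive) or blue (below) and others in grey. Lists of alternative activation and chemokines reach far to both sides, the cell cycle list lies almost whole on the negative side with a median of -0.59, and secretory transport lies on the positive side with a median of 0.18.

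Markers of other cell types were examined as levels, each list as the log2 of its summed linear intensities on an array. None of the 13 T and NK cell markers and none of the 14 fibroblast and stroma markers on the array passed the filter. The 10 macrophage markers all passed it and summed to between 16.45 and 16.51 with IL-4+IL-6, 16.51 and 16.56 with IL-4, 16.91 and 16.95 with IL-6, and 16.83 and 16.87 unstimulated. The dendritic cell list lay between 12.55 and 12.62 with IL-4+IL-6, 13.21 and 13.49 with IL-4, 11.09 and 11.42 with IL-6, and 11.70 and 11.95 unstimulated. Of its 9 genes on the array 5 were tested, with 1 above the prediction (Cd209a) and 2 below, while Flt3, Zbtb46, Xcr1 and Dpp4 did not pass the filter. Most of each sum was Itgax, which read 11.60 to 11.79 with IL-4+IL-6, 12.78 to 13.02 with IL-4, 10.48 to 10.66 with IL-6 and 11.19 to 11.40 unstimulated. The sum thus moved with IL-4 mainly through this gene, and the part of the list in the MHC class II and lectin results was not tested. Of 12 neutrophil markers on the array 8 were tested (1 above, 2 below), with sums of 12.57 to 12.90, 12.51 to 12.88, 12.85 to 13.21 and 12.94 to 13.26 in the 4 groups. Of 13 B and plasma cell markers 6 were tested, with 1 above and 0 below, and sums overlapped between groups at 11.72 to 13.07, 11.53 to 12.70, 12.24 to 13.32 and 12.15 to 13.10. Of 14 mast cell, basophil and eosinophil markers 3 were tested (0 above and 1 below, or 2 below with the replicate number as a block), and their sums lay at 9.23 to 9.41, 9.64 to 9.75, 9.47 to 9.75 and 9.38 to 9.44. Of 11 erythroid and megakaryocyte markers 5 were tested (1 above, 2 below), at 12.24 to 12.42, 11.43 to 11.52, 12.72 to 13.12 and 11.64 to 11.84. All these marker counts are small and stand beside 20.7% above and 20.4% below over all genes tested.

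Additivity can also be asked on the linear scale, where single effects are summed as intensities. Of the 1483 genes called above on the log2 scale, 1352 were also above in all 5 replicate numbers on the linear scale and 7 were below in all 5. Of the 1456 called below, 1291 were below in all 5 and 7 above in all 5. Large positive interactions kept their sign in all 5 numbers for 106 of 107 genes, the exception being Pkp2, a desmosome protein, with 4 of 5. Among the large negative ones, 4 did not, namely Arap3, Axl, Nfil3 and Spata13, in each of which both single-cytokine means lay on the same side of the unstimulated mean. For Arap3 the linear deviation was 115% of the combination level and positive in 5 of 5 numbers. For Axl it was 45.3% of the combination level and positive in 3 of 5 numbers. For Nfil3 it was 5.65% and for Spata13 8.83%, each positive in 4 of 5 numbers. For all 4 genes the direction thus depends on the scale.

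IL-10, like IL-6, acts on STAT3, and the series also holds IL-4+IL-10 and IL-10, with 3 arrays each. The difference of both interactions was fitted on all 29 arrays. The same 5 IL-4 and 8 unstimulated arrays enter both interactions, so they cancel in the difference but not in the IL-10 interaction by itself, which has no IL-4 arrays of its own. It was called for 939 genes (13.1%), 442 with a higher interaction with IL-6 (6.18%) and 497 with a lower one (6.95%), and with the replicate number as a block for 925 and 1252. For some leading genes no difference was called. Arg1 had an interaction of 2.20 with IL-6 and 2.36 with IL-10 in this fit (difference -0.16 ± 0.14, adjusted p = 0.514), and Fcrls -2.09 and -1.97 (difference -0.12 ± 0.193, adjusted p = 0.75). For Pla2g7, a phospholipase of platelet-activating factor, they were -1.56 and -1.53 (difference -0.03 ± 0.19, adjusted p = 0.95).

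Other genes separated the cytokines. Of the 46 genes named for the size of their interaction, 31 differed. They were picked for a large interaction with IL-6, which enters the difference itself, so this count is a description. Ccl17 and Irf4 lay far below their IL-4 level in the combination with IL-6. Ccl17 averaged 5.89 with IL-4+IL-6 and 8.02 ± 0.218 with IL-4+IL-10 (SD, n = 3), against 8.44 with IL-4 alone, and its interactions differed by -2.22 ± 0.20 (adjusted p = 1.6e-08). Irf4 averaged 7.10 with IL-4+IL-6 and 8.47 ± 0.162 with IL-4+IL-10, both under the 9.74 of IL-4 alone, with interactions of -2.13 and -0.04 (difference -2.09 ± 0.30, adjusted p = 2e-05). Cd209e was above additive with both, by 6.00 with IL-6 and 3.72 with IL-10 (difference 2.28 ± 0.17, adjusted p = 9e-10).

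Socs3 and Il4ra, the feedback inhibitor and the IL-4 receptor chain, also differed. Socs3 averaged 11.11 with IL-4+IL-6 and 11.44 with IL-6, against 10.03 ± 0.079 with IL-4+IL-10 and 12.13 ± 0.280 with IL-10 (SD, n = 3 each). Its interaction was not called with IL-6 (0.19 in this fit, adjusted p = 0.371) and -1.59 with IL-10 (difference 1.78 ± 0.19, adjusted p = 2.5e-07). For Il4ra the interactions were 0.85 with IL-6 and -0.90 with IL-10 (difference 1.75 ± 0.18, adjusted p = 9.8e-08), so IL-4 raised Il4ra in the presence of IL-6 and lowered it in the presence of IL-10. For Gja1 they were 2.72 and 0.50 (difference 2.22 ± 0.24, adjusted p = 2e-07).

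**Figure D5:**
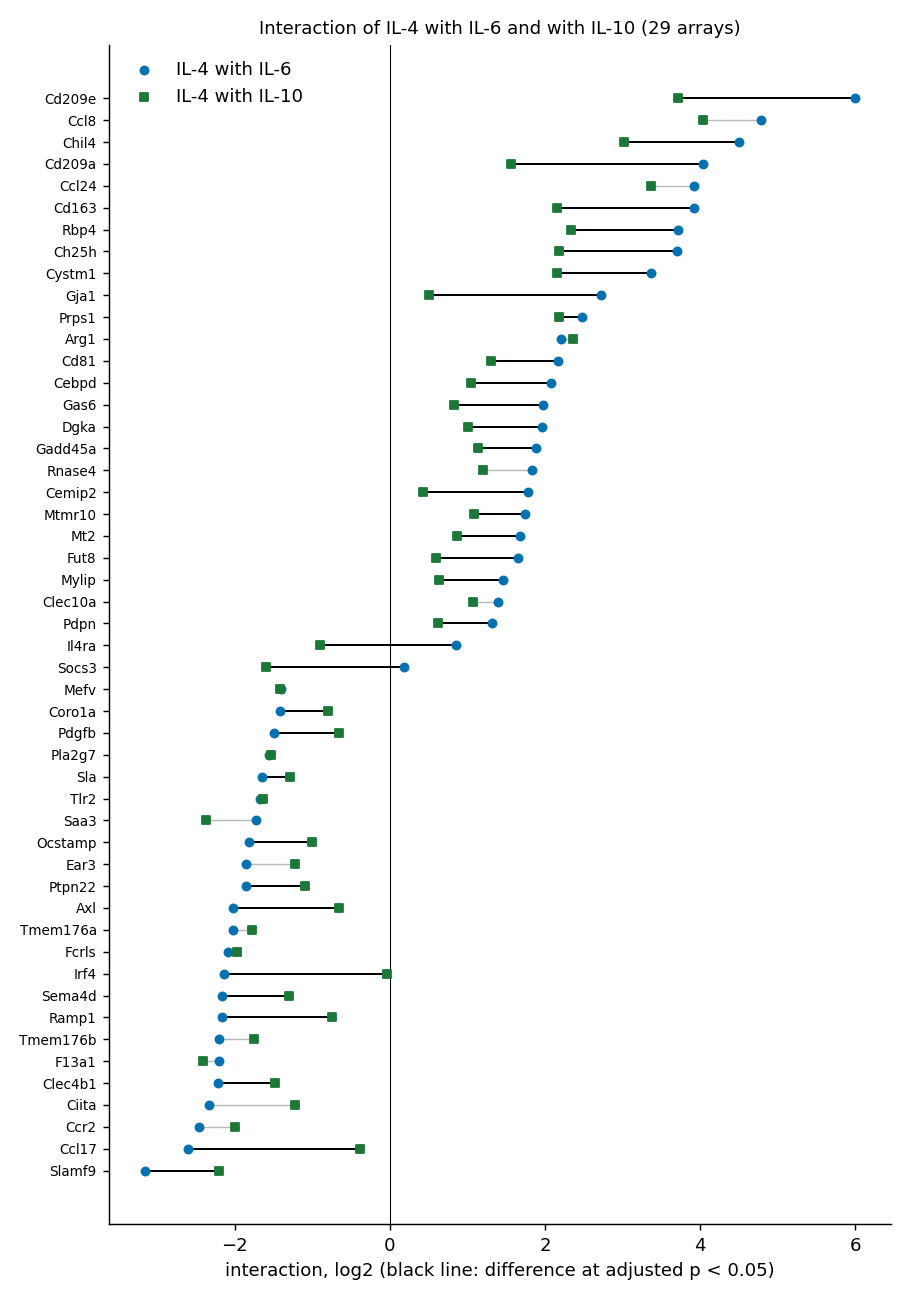
Interaction in log2 of IL-4 with IL-6 (blue circles) and of IL-4 with IL-10 (green squares), both from the fit of 29 arrays, for the 46 genes named by size and for Socs3, Il4ra, Gja1 and Arg1. A black line joins the 2 values where their difference had an adjusted p under 0.05 and a grey line where it did not. Irf4 and Ccl17 lie near 0 with IL-10, Il4ra lies on opposite sides of 0, and Arg1, Fcrls and Pla2g7 nearly coincide.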

How the data were processed

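The deposited values are log2 intensities, 1 per probe set (22690), computed by the authors; the submitters' processing notes name RMA and GCOS 1.4. RMA corrects background, normalizes by quantiles and summarises probes; its version is not given in the sources used here. Values were used as deposited. The supplied annotation names 1 gene for 20393 probe sets, several for 691 and none for 1606; the probe set with the highest mean over the 29 arrays stood for a gene. Genes with at least 3 arrays above the median of all values (log2 6.99) were tested, 7153 of 12393. The 20 arrays were fitted with limma 3.58.1 in R 4.3.3 (lmFit, eBayes, two-sided, Benjamini-Hochberg), without a block, and the script was tested on simulated data. The number of arrays limits precision.

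Replicate numbers pair the arrays: all 30 pairs of arrays with the same number in different groups correlated in their deviations from group means (0.457 to 0.700), against a median of -0.231 over 120 pairs with different numbers, of which 34 were over 0.1 (highest 0.490). Every array correlated best with one of its own number. The design is balanced, so a block for the number leaves each interaction unchanged. The blocked fit called 3499 genes, 2935 of them shared with the 2939 of the fit without it. Same-numbered IL-4+IL-10 and IL-10 arrays correlated at 0.596, 0.637 and 0.776.

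Genes, lists and tests were chosen with earlier results of these data known, so no list is independent evidence. Named are the 15 largest called interactions each way with all group means at or above the filter, the 8 largest each way with a mean under it, the 3 largest of each sign class, up to 4 per list, and Arg1, Socs3, Il4ra, Stat3, Stat6, Xbp1, Hspa5, Ern1, Ctsb, Ctsl, Ctss and Ctsz; not all are printed. Il6st, Il6ra, Ccl2, Ccl7, Ccl22, Pdcd1lg2, Hbegf, Retnla, Mrc1, Mki67, Pkp2, Arap3, Nfil3 and Spata13 fall outside this rule where they are printed and were picked after their values were seen.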

Additional observations from a re-analysis of the deposited data

Results flagged for a closer look

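Cystm1 had 1 replicate number apart from the others. Its interaction was 4.10 within replicate 1, against 3.15 to 3.27 within the other 4 numbers. The gap exceeds Dixon's critical value (0.71 of the range for 5 samples). This was the case for 1 of 46 genes examined, and chance alone gives about 1 in 20.

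For 15 of the 46 genes named by size, the interaction with IL-6 differed from that with IL-10 by at least 1 on the log2 scale at an adjusted p under 0.05 (limma, 29 arrays). Among lectins, chitinase-like and scavenger genes the differences, IL-6 minus IL-10, were 2.28 for Cd209e, 2.47 for Cd209a, 1.49 for Chil4 and 1.77 for Cd163. For genes of lipid and retinol handling they were 1.52 (Ch25h) and 1.37 (Rbp4). For Gas6, Cebpd, Cystm1, Cemip2 and Fut8 they were 1.15, 1.03, 1.22, 1.36 and 1.07. Negative differences were found for Ccl17 (-2.22), Irf4 (-2.09), Ramp1, a subunit of the CGRP receptor (-1.42), and Axl (-1.36). Replicates 1 to 3 of IL-4+IL-10 and IL-10 stand behind the second term of each difference. The first term, the interaction with IL-6, is what these genes were picked by, so the count is a description.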

How the results depend on the processing

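The 46 genes named by size kept their direction and their call in every fit that held them, 37 each or 36 for 5 genes that a stricter filter or the mean of probe sets left out. These fits covered other normalizations, filters, probe set rules, limma settings and leaving out each array or replicate number. Leaving these out gave 1121 to 1552 genes above additive, 1179 to 1562 below, 101 to 114 large above and 92 to 112 large below. The counts of the difference between the IL-6 and IL-10 interactions moved more. With the replicate block they were 925 higher and 1252 lower, in place of 442 and 497, and without single arrays 331 to 436 higher and 329 to 676 lower, the lowest without IL-10 replicate 3. For the interaction itself the replicate block gave 1762 above and 1737 below, or 1653 and 1687 as tests of the 5 interactions within numbers, and list counts that it moved by over 1.5 times are given beside the lists described. The linear scale was applied to counts of genes, not to single genes. Of the 153 named genes, 150 did not change sign. Leaving out arrays or numbers gave Socs3 interactions between -0.0434 and 0.0815 and Stat6 interactions between -0.0431 and 0.040, and median centring gave Stat6 0.0036. Hspa5 turned to 0.0336 with quantile normalization. None of these 3 was called under any of these settings, and the cause was not tested. Calls were lost for Itga2b (14 settings), Ctsb (9), Apoc2 (3), Cd22 (1) and Socs2 (1), and gained for Ctsz (1). Means under the filter may limit the size of interactions, and 25 called genes had all 4 means there.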

Other observations

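Iron handling and integrins were not described above. Of 17 genes of iron and haem handling tested, 6 lay below the additive prediction, 2 above and 9 were not called. The shares over all genes tested were 20.4% below and 20.7% above. Slc11a1, an iron and manganese transporter of the phagosome, averaged 9.78 with IL-4+IL-6, 11.15 with IL-4, 11.74 with IL-6 and 12.03 unstimulated (interaction -1.09 ± 0.082, adjusted p = 2.06e-09). Slc40a1, the iron exporter ferroportin, averaged 6.18 with IL-4+IL-6, 7.62 with IL-4, 9.88 with IL-6 and 10.65 unstimulated (interaction -0.67 ± 0.16, adjusted p = 0.00151), while on the linear scale its deviation was positive. Bach1, a haem-regulated repressor, lay above the prediction (0.87 ± 0.08, adjusted p = 3.39e-08).

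Of 21 integrin and adhesion genes, 11 lay below, 4 above and 6 were not called (median -0.35). Itgam, the CD11b chain of the complement receptor, averaged 10.06 with IL-4+IL-6, 10.58 with IL-4, 11.79 with IL-6 and 11.05 unstimulated (interaction -1.25 ± 0.073, adjusted p = 4.7e-11). Cdh1, E-cadherin, averaged 9.10 with IL-4+IL-6, 7.18 with IL-4, 3.75 with IL-6 and 3.65 unstimulated (interaction 1.82 ± 0.24, adjusted p = 3.5e-06).

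Of 32 genes of the type I interferon response, 8 lay above, 4 below and 20 were not called, beside 20.7% above and 20.4% below over all genes tested, and with the replicate number as a block 8 lay above and 9 below. Mx1, an antiviral GTPase, had -1.18 ± 0.16 (adjusted p = 5.18e-06), and Oas2, a sensor of double-stranded RNA, 0.84 ± 0.11 (adjusted p = 3.65e-06).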
